A study of Homo sapiens with 6 samples.

Results

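The genes described are MT-TF, MT-TV and MT-TL1, the 3 transfer RNA genes of human mitochondrial DNA (mtDNA) that lie next to its ribosomal RNA genes. They were taken by position and identity, as the tRNA genes of chromosome MT between positions 577 and 3304 on the plus strand, and make up 3 of the 22 mtDNA tRNA genes and 3 of the 57500 genes in the count tables. All 6 libraries hold RNA from mitochondria isolated with a kit from HepG2, a human liver carcinoma cell line labelled as epithelial and of WT genotype. The cells had received only the vehicle DMSO (0 µM, the control), or 10 µM or 100 µM of GenX, a short-chain perfluoroalkyl ether acid used to make fluoropolymers, each for 48 hours and with 2 libraries per dose. Ribosomal RNA was depleted before sequencing, and the mtDNA rRNA genes themselves are not analysed here. The count tables list 35 mtDNA genes, 22 for tRNAs and 13 for proteins, so every share of mtDNA counts leaves out the rRNA genes.

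Human mtDNA is copied into long transcripts of both strands, in which tRNA sequences stand between the ribosomal and messenger RNAs. Cutting out the tRNAs at their ends releases the RNAs on either side, so a tRNA gene is both a product and a cutting mark. MT-TF encodes the tRNA for phenylalanine and opens the plus-strand transcript ahead of the small-subunit rRNA. MT-TV encodes the tRNA for valine, which in human mitochondria is also a structural RNA of the large ribosomal subunit, and stands between the rRNA genes. MT-TL1 encodes the leucine tRNA for UUA and UUG codons, follows the large-subunit rRNA, and holds a binding site of the transcription factor MTERF1.

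The sequences below show the counted genes, with the anticodon in capitals (DNA letters, plus strand, GENCODE v29 transcripts on GRCh38). Each anticodon was located from the base-paired stem around its loop, and each reads the amino acid in the gene's name.
MT-TF: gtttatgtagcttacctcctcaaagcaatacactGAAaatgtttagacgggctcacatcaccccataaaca
MT-TV: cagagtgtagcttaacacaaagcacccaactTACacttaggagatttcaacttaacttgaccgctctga
MT-TL1: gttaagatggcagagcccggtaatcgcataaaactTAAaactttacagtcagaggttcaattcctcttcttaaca

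MT-TF (ENSG00000210049) spans MT:577-647 and is 71 bases long. The next base, 648, begins the rRNA gene MT-RNR1. MT-TV (ENSG00000210077) spans MT:1602-1670, has 69 bases, and touches MT-RNR1 on one side and MT-RNR2 on the other with 0 bases between. MT-TL1 (ENSG00000209082) spans MT:3230-3304, has 75 bases, follows MT-RNR2 directly, and is separated by 2 bases from MT-ND1, which encodes a complex I subunit. All 3 are single-exon noncoding genes. Their GC content was 40.8%, 42.0% and 38.7%, within the range of the other 19 tRNA genes (23.1% to 49.3%). MT-TL1 was longer than each of the other 19, which have 59 to 73 bases. Identity between the members was 44.4% for MT-TF and MT-TV, 54.7% for MT-TF and MT-TL1 and 41.3% for MT-TV and MT-TL1, within the range of pairs among the other 19 (29.6% to 60.9%).

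Depth, the mtDNA share and nuclear RNA all differed between doses. Library totals were 240683 and 60854 counts in DMSO controls, 43556 and 29350 under 10 µM, and 2141282 and 1338397 under 100 µM, so that 3 counts, the limit that a count of 0 allows, stand for 1.40 to 102 CPM (counts scaled to a library total of 1e6). mtDNA genes took 4.35% and 10.4% of the counts in DMSO controls, 43.7% and 61.1% under 10 µM, and 3.58% and 3.32% under 100 µM. Summed over 3 nuclear-retained RNAs (MALAT1, NEAT1 and KCNQ1OT1), the share was 13.9% and 5.58%, then 0.0918% and 0.0545%, then 3.50% and 3.16%. The 8 hepatocyte and HepG2 markers together took 0.563% and 1.22%, 0.0413% and 0.0136%, and 1.07% and 1.06%. Of these 8, 5 had a count in each control, 6 and 2 under 10 µM, and 8 in each 100 µM library. AFP, a defining HepG2 marker, was at 0 in both controls and both 10 µM libraries, and FGB and TTR were at 0 in both controls. The 9 immune, endothelial and fibroblast markers took 0.0114% to 0.0540% over the 6 libraries, and PTPRC and CDH5 were at 0 in each. The part of these shares in the results below was not tested, and with bulk counts fewer cells or mitochondria and less RNA per mitochondrion cannot be told apart.

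MT-TF had 50 and 84 counts in DMSO controls, 258 and 254 under 10 µM, and 14 and 17 under 100 µM. Relative to the library total these were 208 and 1380 CPM, 5923 and 8654 CPM, and 6.54 and 12.7 CPM. The 3 doses did not overlap, with 10 µM on top and 100 µM at the bottom, although the controls themselves lay far apart. Under 100 µM the exact 95% counting intervals were 3.57 to 10.97 and 7.40 to 20.3 CPM, and such intervals cover counting error only.

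MT-TV had 65 and 82 counts in DMSO controls, 278 and 393 under 10 µM, and 39 and 40 under 100 µM. Its levels were 270 and 1347 CPM, 6383 and 13390 CPM, and 18.2 and 29.9 CPM. The order of doses was that of MT-TF, without overlap. Over the 6 libraries the log2 CPM values of MT-TF and MT-TV correlated at r = 0.997, given as a description since both come from the same libraries and depths. For every r of log2 CPM here and below, libraries were scaled by edgeR's TMM factors with a small prior count, not by totals alone.

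MT-TL1 had 179 and 46 counts in DMSO controls, 199 and 158 under 10 µM, and 1620 and 1036 under 100 µM. Its levels were 744 and 756 CPM in DMSO controls, 4569 and 5383 CPM under 10 µM, and 757 and 774 CPM under 100 µM. The 10 µM libraries again stood on top, but here both 100 µM libraries lay just above both controls. In contrast with MT-TF and MT-TV, whose control libraries differed several-fold, the MT-TL1 levels of both controls were close, at 750 ± 8.62 CPM (SD, n = 2).

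**Figure D1:**
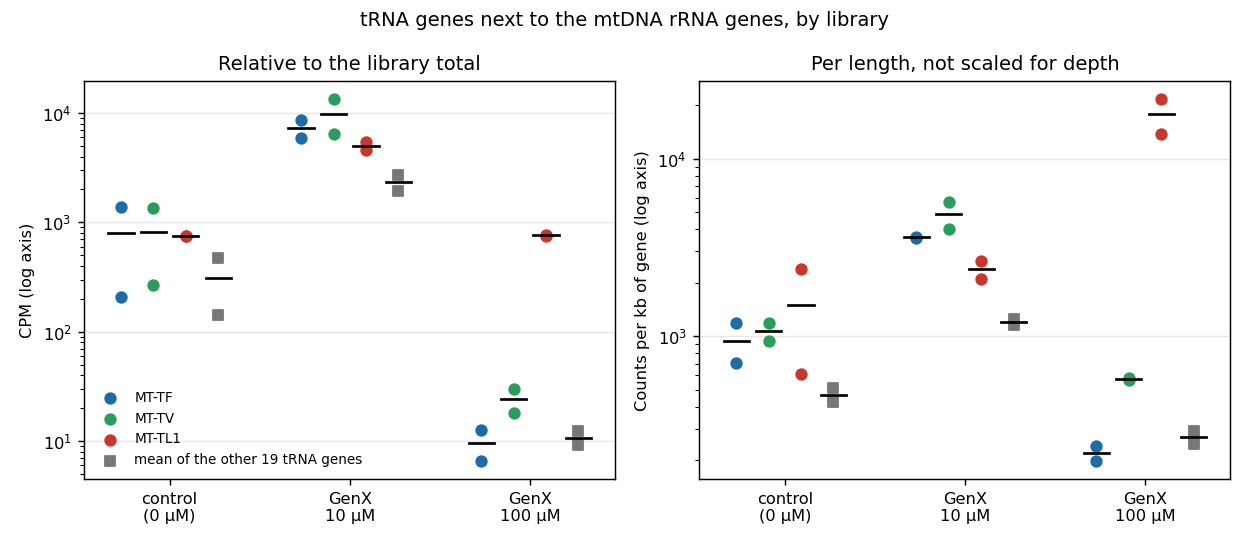
Levels of MT-TF, MT-TV, MT-TL1 and the mean of the other 19 mtDNA tRNA genes in each of the 6 libraries, as CPM (left) and as counts per kb of gene, not scaled for depth (right). Both axes are log, points are libraries and bars group means (n = 2). Under 100 µM MT-TL1 stood at 757 and 774 CPM while MT-TF, MT-TV and the mean of the other tRNA genes stood below 30 CPM.

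Per length, the members changed places between doses. Counts per kb, here and below, are not scaled for depth, so they compare genes within a library, not doses. How reads that only overlap a gene were counted is not given. Ranks of tRNA genes above longer protein genes may thus partly reflect their short length, which was not tested. MT-TL1 held 2387 and 613 counts per kb in DMSO controls, 2653 and 2107 under 10 µM, and 21600 and 13813 under 100 µM. MT-TV held 942 and 1188, then 4029 and 5696, then 565 and 580 counts per kb. MT-TF held 704 and 1183, then 3634 and 3577, then 197 and 239 counts per kb. Under 10 µM MT-TV was the highest of all 35 mtDNA genes in both libraries and MT-TF the second. Under 100 µM MT-TL1 was the highest of the 35 in both libraries, above MT-CO2, a cytochrome c oxidase subunit and the highest protein gene there, at 19427 and 11756 counts per kb. MT-TF and MT-TV then ranked 23 and 19, and 16 and 17, of the 35.

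MT-TL1's share of all tRNA counts in DMSO controls was 19% (16.5 to 21.7) and 6.06% (4.47 to 8.002), and under 10 µM 8.45% (7.36 to 9.65) and 6.85% (5.85 to 7.96), with 95% exact binomial intervals. Under 100 µM it was 79.1% (77.3 to 80.8) and 73.6% (71.2 to 75.9). MT-TF took 5.31% and 11.1% of the tRNA counts in DMSO controls, 10.96% and 11.01% under 10 µM, and 0.684% and 1.21% under 100 µM. MT-TV took 6.90% and 10.8%, then 11.8% and 17.04%, then 1.90% and 2.84%. Of all mtDNA counts, MT-TL1 took 1.71% and 0.724% in DMSO controls, 1.04% and 0.881% under 10 µM, and 2.11% and 2.33% under 100 µM, so its share of mtDNA counts moved far less than its share of tRNA counts. The tRNA genes together made up 8.99% and 11.9% of mtDNA counts in DMSO controls, 12.4% and 12.9% under 10 µM, and 2.67% and 3.17% under 100 µM.

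**Figure D2:**
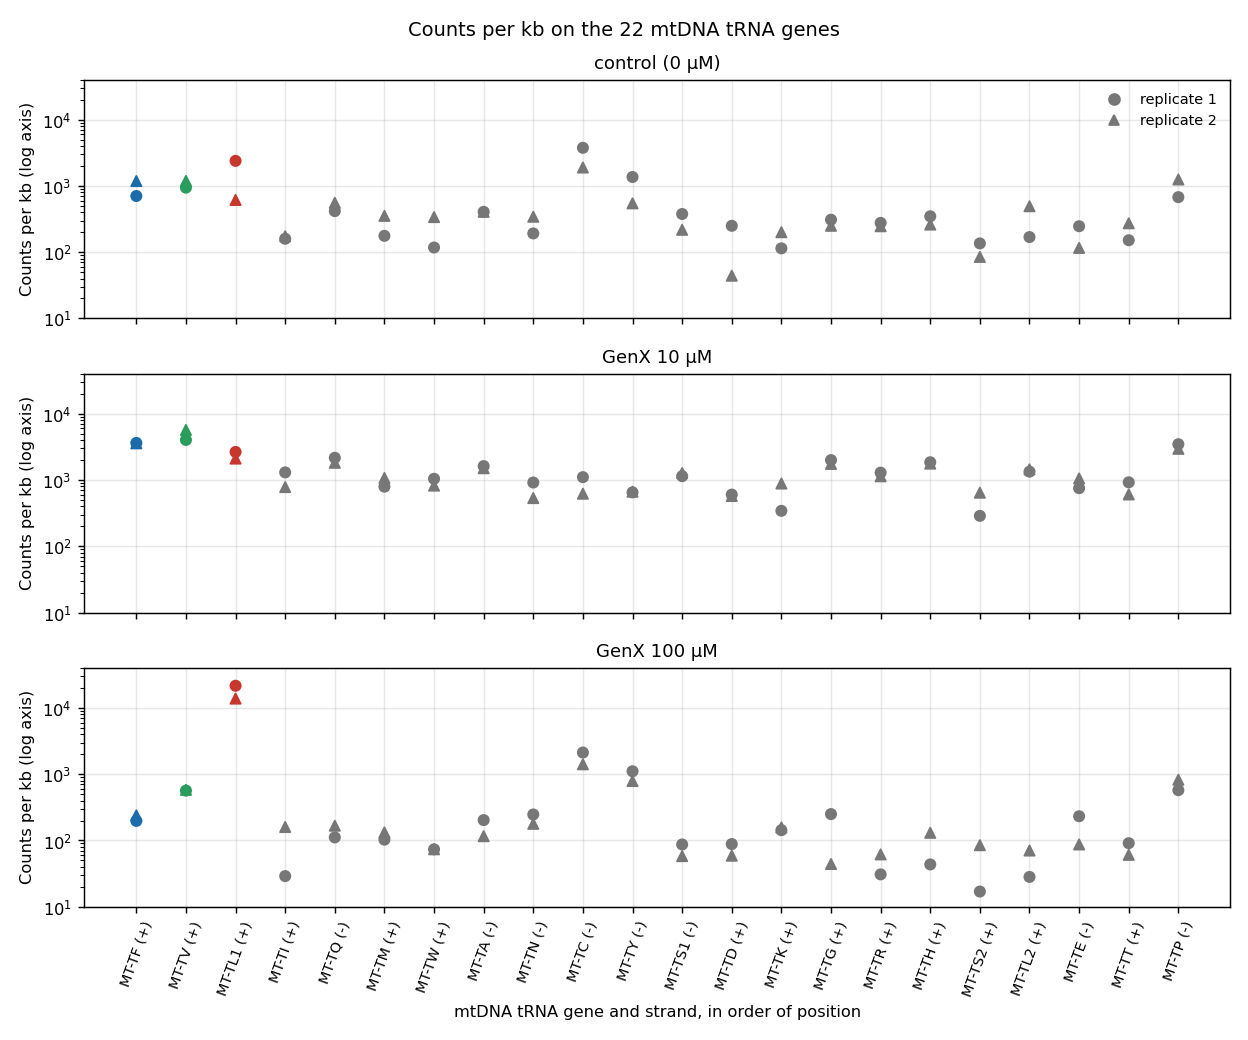
Counts per kb (log axis, not scaled for depth) on each of the 22 mtDNA tRNA genes in order of position, with strand, for the controls, 10 µM and 100 µM. Circles are replicate 1 and triangles replicate 2. MT-TL1 (red) stood at 21600 and 13813 counts per kb under 100 µM, where the highest of the other 19, MT-TC, stood at 2121 and 1409.

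The comparison of 10 µM with control asks whether the lower dose changed these tRNA levels, and 0 of the 3 passed. MT-TF averaged 7289 ± 1931 CPM (SD, n = 2) under 10 µM and 794 ± 829 CPM in DMSO controls, a log2 fold change of 3.14 ± 0.95 (SE; adjusted p = 0.131 by the quasi-likelihood test of edgeR, Benjamini-Hochberg over 3180 genes). MT-TV averaged 9886 ± 4955 and 809 ± 762 CPM (3.51 ± 0.88, adjusted p = 0.106). MT-TL1 averaged 4976 ± 576 and 750 ± 8.62 CPM (2.46 ± 0.83, adjusted p = 0.145). Over all genes 0.22% were called higher and 0.377% lower, the median log2 fold change was -3.18, and the other 19 tRNA genes, of which 0 passed, had a median of 3.30. Both libraries under 10 µM lay above both controls for each member. The mtDNA share of all counts did the same, with 43.7% and 61.1% against 4.35% and 10.4%. How many of all genes separated in this way was not counted. The calls depended on the controls and the tool. Without control 1 the values were 2.31, 2.79 and 2.63 for MT-TF, MT-TV and MT-TL1 (adjusted p = 0.0378, 0.0290 and 0.0183), where 0.935% of genes were called higher. Without control 2 they were 4.03, 4.08 and 1.65 (adjusted p = 0.000569, 0.000289 and 0.0928), with 0.742% called higher. In DESeq2's Wald test on the filtered genes all 3 passed (3.63, 3.99 and 2.99), where 9.53% of genes were called higher. On all genes with a count that test passed 0 of the 3 (3.41, 3.76 and 2.72, adjusted p = 0.340, 0.338 and 0.374), with 0.058% called higher.

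Under 100 µM, set against the same controls, 0 of the 3 passed, as did 0 of all 3180 genes (0% called; 573 had an unadjusted p under 0.05 in edgeR, and DESeq2's Wald test called 244 on the filtered genes and 11 on all genes with a count). MT-TF averaged 9.62 ± 4.36 CPM under 100 µM and 794 ± 829 CPM in DMSO controls (log2 fold change -6.74 ± 1.13, adjusted p = 0.115 in edgeR). It had the third smallest p of all genes, and MT-TV had the next, with 24.05 ± 8.25 and 809 ± 762 CPM (-5.48 ± 0.96, adjusted p = 0.128). Without control 1 they had -6.93 and -5.57 (adjusted p = 0.00562 for both), where 2.67% of genes were called lower, and without control 2 -5.05 and -4.11 (adjusted p = 2.64e-05 and 0.000135), where 2.52% were. Both passed with DESeq2's size factors in edgeR (-7.22 and -5.96, adjusted p = 0.0481 for both), as 2 of only 4 genes called, 0.126% of those tested and all lower. In DESeq2's Wald test both passed on the filtered genes (-7.25 and -5.97), with 7.7% called lower, and neither passed on all genes with a count (-7.08 and -5.81, adjusted p = 0.0630 and 0.140), with 0.807% called lower. MT-TL1 averaged 765 ± 12.4 and 750 ± 8.62 CPM, and its log2 fold change of -0.59 (95% interval -2.33 to 1.15, adjusted p = 0.712) became 0.03 with library sizes alone, 0.27 without control 1 and 0.04 without 100 µM replicate 2, so that its direction depended on the scaling and on single libraries. The other 19 tRNA genes lay between -7.34 and -4.28, with a median of -5.56, and the median of all genes was 0.35.

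Under 100 µM against 10 µM, a comparison that shares its libraries with the others, MT-TF and MT-TV fell and MT-TL1 did not pass. MT-TF averaged 9.62 ± 4.36 CPM under 100 µM and 7289 ± 1931 CPM under 10 µM, a log2 fold change of -9.88 ± 1.28 (adjusted p = 0.00342 in edgeR). MT-TV averaged 24.05 ± 8.25 and 9886 ± 4955 CPM (-8.99 ± 1.12, adjusted p = 0.00323). MT-TL1 averaged 765 ± 12.4 and 4976 ± 576 CPM (-3.05 ± 0.85, adjusted p = 0.0836, 95% interval -4.92 to -1.18). Over all genes 2.11% were called lower and the median was 3.52. Of the other 19 tRNA genes 18 were lower, with a median of -9.07, so that the fall of MT-TF and MT-TV was shared by nearly all mtDNA tRNA genes. It was not confined to tRNA genes. The mtDNA share of all counts was 43.7% and 61.1% under 10 µM and 3.58% and 3.32% under 100 µM. The protein gene MT-ND1 averaged 35574 and 1439 CPM in the same order. Without one library, MT-TF lay between -9.71 and -8.82 and MT-TV between -8.71 and -7.62. Every such value was less extreme than that from all 6 libraries. Without the filter on low counts neither passed (-8.62 and -7.74, adjusted p = 0.0679 and 0.0735). MT-TL1 passed without control 1 (-2.36, adjusted p = 0.00569) or control 2 (-2.23, adjusted p = 0.00268), in fits that called 7.58% and 5.02% of genes lower. It passed with DESeq2's size factors in edgeR (-4.04, adjusted p = 0.0359), with 2.3% called lower, and in DESeq2's Wald test on the filtered genes (-4.04), with 10.2%. On all genes with a count, where 13.6% were called lower, that test passed MT-TF and MT-TV (-10.49 and -9.57, adjusted p = 0.000249 and 0.000941) but not MT-TL1 (-3.65, adjusted p = 0.240).

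The members were then compared with each other within each library, where library size and the mtDNA share cancel. These ratios were added after the counts had been seen. The ratio of MT-TL1 to MT-TF per kb was 3.39 (95% exact interval 2.46 to 4.74) and 0.518 (0.354 to 0.751) in DMSO controls. Under 10 µM it was 0.730 (0.604 to 0.882) and 0.589 (0.480 to 0.721), and under 100 µM 109.5 (65.1 to 201) and 57.7 (35.9 to 99.4). MT-TL1 thus outnumbered MT-TF in both 100 µM libraries and in control 1 but in neither 10 µM library nor control 2. On the log2 scale the 100 µM mean lay 5.91 above the control mean (4.55 without control 2, 7.26 without control 1) and 6.92 above the 10 µM mean.

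The ratio of MT-TL1 to MT-TV was 2.53 (1.90 to 3.42) and 0.516 (0.352 to 0.749) in DMSO controls, 0.659 (0.546 to 0.793) and 0.370 (0.306 to 0.446) under 10 µM, then 38.2 (27.8 to 53.9) and 23.8 (17.4 to 33.6) under 100 µM. The log2 mean under 100 µM lay 4.72 above the controls (3.57 without control 2, 5.87 without control 1) and 5.93 above 10 µM. The ratio of MT-TV to MT-TF covered a narrower range. It was 1.34 (0.911 to 1.97) and 1.00 (0.732 to 1.38) in DMSO controls, 1.11 (0.933 to 1.32) and 1.59 (1.36 to 1.87) under 10 µM, and 2.87 (1.52 to 5.72) and 2.42 (1.34 to 4.55) under 100 µM. The 100 µM libraries lay above the others, by 1.18 log2 units over the controls and 0.99 over 10 µM. In each of these contrasts under 100 µM the libraries did not overlap, and the exact two-sided permutation test gave p = 0.33, the smallest that 2 against 2 libraries allow. The smallest value adjusted over the 33 such comparisons was 0.44.

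**Figure D3:**
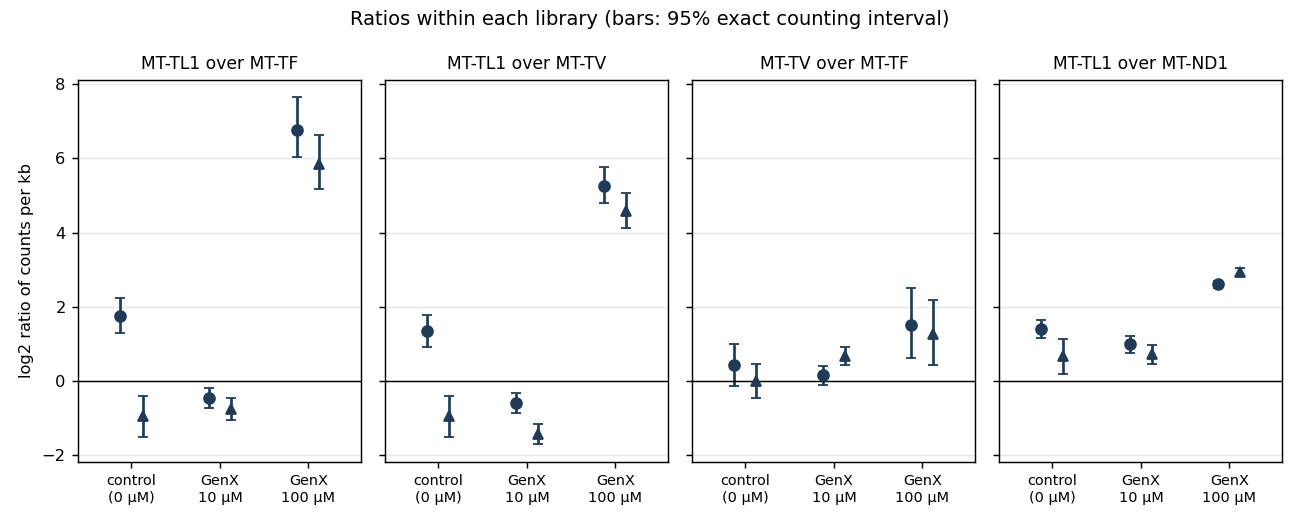
Log2 ratio of counts per kb within each library for MT-TL1 over MT-TF, MT-TL1 over MT-TV, MT-TV over MT-TF and MT-TL1 over MT-ND1, by dose; circles are replicate 1, triangles replicate 2, and bars the 95% exact counting interval. The MT-TL1 ratios to MT-TF lay at 6.78 and 5.85 under 100 µM, with the other 4 libraries between -0.95 and 1.76.

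Set beside the mean of the other 19 tRNA genes per kb, MT-TL1 was 4.70 and 1.45 times as high in DMSO controls, 2.13 and 1.82 times under 10 µM, then 73.6 and 56.3 times under 100 µM. That mean was 508 and 423 counts per kb in DMSO controls, 1243 and 1154 under 10 µM, and 294 and 245 under 100 µM. MT-TV stood at 1.86 and 2.81 times the mean in DMSO controls, 3.24 and 4.93 under 10 µM, and 1.93 and 2.36 under 100 µM. MT-TF stood at 1.39 and 2.79 times, then 2.92 and 3.10 times, then 0.672 and 0.976 times. MT-TF was thus below the mean of the others only in the 100 µM libraries. It was not low among the tRNA genes there, ranking 10 and 6 of the 22. The median of the other 19 was 103 and 116 counts per kb, below MT-TF at 197 and 239. Their highest, MT-TC, held 2121 and 1409. The mean of the 3 members over the mean of the others, on the log2 scale, was 3.17 higher under 100 µM than in DMSO controls, 2.90 higher than under 10 µM, and 0.27 higher under 10 µM than in DMSO controls (exact permutation p = 0.33 each). With the median member in place of the mean, these became -0.09, -0.50 and 0.40, so the 100 µM values rested on MT-TL1. With the other plus-strand tRNA genes as the base, the value under 10 µM against control turned to -0.61.

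A fit with the counts on the other 19 tRNA genes as library size asks the same question of the whole table. On this scale MT-TL1 was higher under 100 µM than in DMSO controls (log2 fold change 4.40, 95% interval 1.40 to 7.40, adjusted p = 0.0165 in edgeR) and than under 10 µM (5.06, 1.96 to 8.16, adjusted p = 0.00402). MT-TF and MT-TV did not pass, at -1.33 and -0.11 against control and -1.84 and -0.91 against 10 µM. On the same scale 61.2% of all genes were called higher against control, and 90.6% higher and 0.0314% lower against 10 µM, and the medians of all genes were 5.38 and 10.83. MT-TL1 lay below both medians. With the counts on the 13 mtDNA protein genes as library size, MT-TL1 had 0.76 under 100 µM against control (adjusted p = 0.686) and 1.05 against 10 µM (adjusted p = 0.363). MT-TF and MT-TV had -5.10 and -3.88 against control (adjusted p = 0.141 for both) and were lower than under 10 µM (-5.75 and -4.84, adjusted p = 0.0108 and 0.0119), where 1.86% of all genes were called lower. Under 10 µM against control 0 members passed on either scale, while 0% of all genes were called higher on both, and 38.9% lower with the protein genes and 44.4% lower with the other tRNA genes as library size. MT-TL1 turned to -0.30 with the protein genes and to -0.66 with the other tRNA genes.

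**Figure D4:**
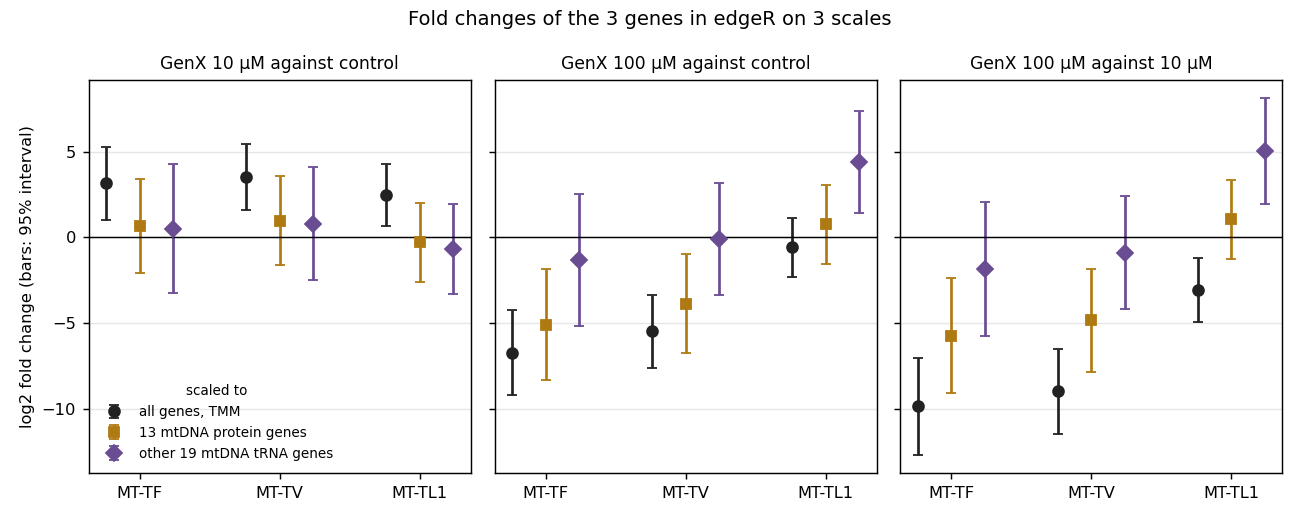
Log2 fold changes of MT-TF, MT-TV and MT-TL1 in edgeR with 95% intervals for the 3 comparisons, scaled to all genes by TMM (black circles), to the 13 mtDNA protein genes (squares) or to the other 19 mtDNA tRNA genes (diamonds). MT-TL1 under 100 µM against control ran from -0.59 over 0.76 to 4.40 across the scales, while MT-TF had -6.74, -5.10 and -1.33.

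MT-ND1, the protein gene 2 bases after MT-TL1, gives the level of the next RNA on the same strand. MT-ND1 held 903 and 385 counts per kb in DMSO controls, 1340 and 1281 under 10 µM, and 3562 and 1802 under 100 µM, not scaled for depth. Relative to the library total, MT-ND1 was instead lowest under 100 µM. It stood at 3586 and 6047 CPM in DMSO controls, 29410 and 41738 under 10 µM, and 1590 and 1287 under 100 µM. MT-TL1 was 2.64 (95% exact interval 2.24 to 3.11) and 1.59 (1.15 to 2.17) times as high per kb in DMSO controls, and 1.98 (1.70 to 2.30) and 1.64 (1.38 to 1.94) times under 10 µM. Under 100 µM it was 6.06 (5.71 to 6.44) and 7.66 (7.09 to 8.28) times as high. Per kb, MT-TL1 exceeded MT-ND1 in all 6 libraries, by most under 100 µM. There the log2 ratio was 1.73 above the controls and 1.92 above 10 µM without overlap. In raw counts MT-TL1 was below the longer MT-ND1 throughout, with 179 against 863 in control 1 and 1620 against 3405 in 100 µM replicate 1. MT-TF, by contrast, held 0.780 and 3.07 times the counts per kb of MT-ND1 in DMSO controls, 2.71 and 2.79 times under 10 µM, then 0.0554 and 0.133 times under 100 µM. MT-TV held 1.04 and 3.09 times, then 3.01 and 4.44 times, then 0.159 and 0.322 times.

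Likeness of pattern was measured as Pearson's r of TMM-scaled log2 CPM with the mean of the 3 members over the 6 libraries, as a description. The 5 highest of all tested genes were mtDNA genes, namely MT-TH (0.998), MT-TR (0.998), MT-ND6 (0.998), MT-TA (0.996) and MT-TQ (0.996). MT-TH, MT-TR, MT-TA and MT-TQ encode the tRNAs for histidine, arginine, alanine and glutamine, and MT-ND6 a complex I subunit on the minus strand. The 3 highest nuclear genes were the pseudogene UBBP1 (0.993) and MTND2P28 (0.992), a nuclear copy of a mitochondrial gene, and ADGRA1 (0.991), with at most 4, 23 and 10 counts in a library. MT-TL1 itself correlated at 0.842 with MT-TF and 0.872 with MT-TV.

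A list of nuclear genes covered the processing and charging of mitochondrial tRNAs, mtDNA transcription and related steps. Most were too shallowly counted to compare. Of 29 such genes, 7 entered the test, namely LRPPRC, NSUN2, REXO2, TFAM, SLIRP, TUFM and POLRMT. Of these, 0 passed in each of the 3 comparisons (background 0.597%, 0% and 2.86% called in either direction). The test thus held none of the cutting enzymes and synthetases named below. Together the 29 held 286 and 27 counts in DMSO controls, 32 and 8 under 10 µM, and 2617 and 2008 under 100 µM. Relative to the library total the range was far narrower, at 1188 and 444, 735 and 273, and 1222 and 1500 CPM. Counts of single genes given next are likewise not scaled for depth. The 3 with the highest mean level were LRPPRC, which stabilises mitochondrial mRNAs, NSUN2, a cytosine methyltransferase of RNA, and POLRMT, the mitochondrial RNA polymerase. LRPPRC had 3 and 0 counts in DMSO controls, 11 and 0 under 10 µM, and 557 and 375 under 100 µM. POLRMT had 9 and 1, 17 and 0, and 279 and 248 counts, and NSUN2 had 167 and 0, 1 and 0, and 35 and 93. The cutting enzymes TRMT10C, HSD17B10, KIAA0391 and ELAC2, and the leucine, valine and phenylalanine synthetases LARS2, VARS2 and FARS2, did not reach the filter on low counts.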

How the data were processed

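RNA from isolated HepG2 mitochondria was measured in 6 libraries, 2 per GenX dose. The deposited values are raw counts of reads per gene in the layout of featureCounts, with GRCh38 positions. Per the submitters' processing notes, FastQC, STAR, featureCounts and DESeq2 were used, with no version. Annotation release, strand setting, and treatment of overlapping or multiply mapped reads are not given in the sources used here. mtDNA genes have nuclear copies, and reads of a mature tRNA, of a longer transcript holding it and of the opposite strand may therefore not be separated in these counts. Per the labels' protocols, libraries were stranded, from total RNA depleted of ribosomal RNA.

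Symbols came from GENCODE v29 (56898 of 57500 identifiers; all 3 members had the same position). Counts were tested in edgeR 4.0.16 (R 4.3.3): filterByExpr (3180 genes), TMM, robust quasi-likelihood fit of all 6 libraries as group means, two-sided, adjusted by Benjamini-Hochberg over all genes at 0.05. SE is the log2 fold change over the square root of F. DESeq2 1.42.0 was an alternative, on the filtered genes and on all genes with a count; shares called are of genes with an adjusted p. Ratios used exact permutation tests over libraries (scipy 1.17.1). Replicates differed beyond sampling noise (chi-square per degree of freedom 12.9 to 39.4), and the labels, which give 1 batch, do not say whether they are separate cultures, so p-values measure only the spread between these samples.

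The members, gene lists and tests were chosen with earlier results of these data known. Other genes were named by rule: MT-ND1 as neighbour, the highest of the other tRNA genes, the 5 tested and 3 nuclear genes most correlated with the members' mean, and from the nuclear list those that passed or, with none, the 3 with the highest mean CPM. MT-CO2 and the enzymes below the filter were named after their values were seen.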

Additional observations from a re-analysis of the deposited data

How the results depend on the processing

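Leaving out 1 library at a time, the counts of genes called ran from 4 to 861 at 10 µM against control, from 0 to 204 at 100 µM against control and from 16 to 1272 at 100 µM against 10 µM, so the number of calls rests on single libraries. The log2 fold changes of MT-TF, MT-TV and MT-TL1 ran from 2.31 to 4.03, 2.58 to 4.08 and 1.65 to 2.63 at 10 µM against control. At 100 µM against control they ran from -6.93 to -5.05, -5.57 to -4.11 and -0.58 to 0.27, and at 100 µM against 10 µM from -9.71 to -8.82, -8.71 to -7.62 and -2.44 to -2.15. In that last comparison the values from all 6 libraries, -9.88, -8.99 and -3.05, were more extreme than every fit without 1 library. Where 1 library was left in a group, it was assumed to vary like the others. Some log2 ratio differences changed sign. At 10 µM against control, MT-TL1 ran from -2.37 to 0.339 over MT-TF, from -0.551 to 0.179 over MT-ND1 and from -1.25 to 0.446 over the other tRNA genes. MT-TF over MT-ND1 ran from -0.160 to 1.82 and MT-TV over MT-TF from -0.0642 to 0.458, and at 100 µM against control MT-TV over the other tRNA genes ran from -0.396 to 0.201.

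With DESeq2's size factors 4 genes passed at 100 µM against control, MT-TF (-7.22) and MT-TV (-5.96) among them, and MT-TL1 passed against 10 µM (-4.04). Library sizes alone gave 7 calls at 10 µM against control and 159 at 100 µM against 10 µM, with MT-TL1 at 0.0296 at 100 µM against control. With the other tRNA genes as library size, the calls were 1413, 1946 and 2882, MT-TL1 had -0.66, 4.40 and 5.06, and MT-TF (-1.84) and MT-TV (-0.91) no longer passed at 100 µM against 10 µM. With the 13 protein genes, 1237 and 2447 genes passed at 10 µM against control and 100 µM against 10 µM, and MT-TL1 had -0.30, 0.76 and 1.05. DESeq2's Wald test on the filtered genes called 554, 244 and 383 genes, with MT-TF, MT-TV and MT-TL1 at 3.63, 3.99 and 2.99, MT-TF and MT-TV at -7.25 and -5.97, and MT-TL1 at -4.04. These calls depended on the filter: on all genes with a count, an alternative chosen after seeing the data, the same test called 15, 11 and 925 genes, and of the members only MT-TF and MT-TV at 100 µM against 10 µM. Without the filter 7 and 3 genes passed at 10 µM against control and 100 µM against 10 µM, where MT-TF (-8.62) and MT-TV (-7.74) did not, and MT-TL1 had 0.0782 at 100 µM against control. With a mean of at least 5 CPM these were 95, 291 and 0.43. With only the 4 libraries compared, 206 genes passed at 10 µM against control (72 higher) and 258 at 100 µM against 10 µM (158 higher). The members had 3.92, 4.31 and 3.18 at 10 µM against control, and MT-TL1 had -2.84 at 100 µM against 10 µM. The share of all genes called was not recorded for these fits. Thinning every library to the shallowest total was an alternative chosen after seeing the data. There MT-TV (5.37) passed at 10 µM against control and MT-TL1 (-4.78) at 100 µM against 10 µM. The share of all genes called was not recorded for that fit. Its values at 100 µM were near the floor, with 0 and 0 counts for MT-TF, 1 and 1 for MT-TV, and 22 and 24 for MT-TL1. The mean of the members over the other tRNA genes at 10 µM against control was -0.41 over their median, -0.61 over the plus-strand ones and -0.40 for MT-TL1 alone. At 100 µM it was -0.0943 against control and -0.50 against 10 µM for the median member, and -0.53 and -1.26 for MT-TF and MT-TV alone, the single-member splits being chosen after seeing the data. The cause of these changes was not tested.

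Replicate numbers did not pair the samples: deviations of same-numbered libraries correlated at 0.00033, 0.0032 and -0.022. With the number as a replicate block, 75 genes passed at 10 µM against control (14 higher) and 22 at 100 µM against control (0 higher). MT-TF and MT-TV had 3.47 and 3.67, and -6.53 and -5.30, in these fits. Their adjusted p in edgeR at 100 µM against control was then 6.21e-06 and 1.71e-05. At 100 µM against 10 µM 136 genes passed (54 higher). The share of all genes called was not recorded with the block. At the shallowest depth, 29350 counts, 1 count is 34.1 CPM, above the level of MT-TF and MT-TV at 100 µM.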

Other observations

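Other tRNA genes also stood out of the row. MT-TC and MT-TY, the neighbouring minus-strand genes for cysteine and tyrosine, held 3758 and 1364 counts per kb in control 1, 1894 and 545 in control 2, 1106 and 652 in 10 µM replicate 1, 621 and 667 in 10 µM replicate 2, 2121 and 1106 in 100 µM replicate 1, and 1409 and 788 in 100 µM replicate 2. MT-TC was the highest of the other 19 in both controls and both 100 µM libraries, and MT-TP, the minus-strand gene for proline, at 10 µM (3471 and 2956). The SD of log2 counts per kb over all 22 tRNA genes, MT-TL1 among them, was 1.39 and 1.31 with vehicle, 1.01 and 0.922 at 10 µM, then 2.35 and 1.97 at 100 µM. The lowest of the other 19 held 8 and 3 counts with vehicle, 17 and 38 at 10 µM, and 1 and 3 at 100 µM. How far such low counts widened the SD was not tested.

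Ranked by correlation with MT-TL1 alone, a ranking chosen after the values were seen, the mtDNA genes most like it were MT-CO1 (r = 0.983 of log2 CPM over 6 libraries), MT-ND4 (0.967) and MT-CO3 (0.961), followed by its neighbour MT-ND1 (0.942) and MT-TD (0.941). These are protein genes except the last, whereas 4 of the 5 genes closest to the mean of the 3 members were tRNA genes. The 5 tested genes with the highest r of all, among them ZNF513 (0.993), had at most 24 counts in a library.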
